A study of Triticum aestivum with 18 samples.

Results

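Alcohol dehydrogenases turn acetaldehyde into ethanol and return NADH to NAD+, which lets glycolysis go on when oxygen is short. In cereal grains and roots they form, with pyruvate decarboxylase, the ethanolic branch of fermentation, and ADH transcripts are known markers of flooding and low oxygen. Bread wheat carries 3 subgenomes (A, B and D), so most genes exist as homoeologues, near-identical copies on the matching chromosomes. The 7 loci described here are 7 of the 94141 loci in the table and were chosen by their TraesCS identifiers. Earlier results of these data were known when they were chosen. By the descriptions of the table they are 3 ADH1 loci, 3 ADH2 loci and 1 ADH3 locus.

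Transcripts of germinating seeds of 3 wheat varieties, ZM22, BN207 and BN607, were sequenced in 18 libraries, 3 for each of the 6 groups. According to the labels, waterlogged seeds (W72) lay under 10 cm of water for 72 h and then germinated for 72 h, whereas control seeds (C72) took up water for 24 h and germinated for the same 72 h. The groups therefore differ in total time since wetting as well as in submergence, and the 2 cannot be told apart. By this sequence the W72 libraries were taken after submergence had ended, and "under waterlogging" below refers to these libraries. The study ranks ZM22 as intolerant, BN207 as intermediate and BN607 as tolerant, and by its methods RNA came from seeds without radicle and coleoptile. The study calls the 3 libraries of a group biological replicates, but how they relate to its replicate dishes of seed is not stated, so p-values measure the spread between these libraries, which may be partly technical.

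Positions are those of the table on IWGSC RefSeq v1.0. The ADH1 loci, whose product is the main isozyme of flooded cereal tissue, lie on group 4 chromosomes. They are TraesCS4A02G202100 (ADH1-4A here, chromosome 4A, 491715851 to 491719316), the merged locus of TraesCS4B02G106300 and TraesCS4B02G106200 (ADH1-4B, chromosome 4B, 115555053 to 115560148) and TraesCS4D02G103000 (ADH1-4D, chromosome 4D, 81918232 to 81921969), all on the minus strand. TraesCS4B02G106300, by which ADH1-4B was chosen, was assembled as 1 locus together with TraesCS4B02G106200. In the order of these identifiers the descriptions are a hypothetical protein and ADH1D, so the ADH1 description goes with TraesCS4B02G106200. The ratio of count to FPKM of ADH1-4B was 2.67 times that of ADH1-4A and that of ADH1-4D was 1.61 times, so the gene models differ in length and the absolute share of the 4B copy depends on the merged model.

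TraesCS4A02G202200 (ADH2A-4A, chromosome 4A, 491914927 to 491917719, minus strand) follows ADH1-4A after 195610 bp with 0 loci in between. In the same arrangement TraesCS4B02G106400 (ADH2A-4B, chromosome 4B, 115845324 to 115848236, minus strand) follows ADH1-4B after 285175 bp with 0 loci in between. The table describes both as ADH2A, while the study calls the 4B locus ADH3. The other 2 loci are TraesCS1D02G376300 (ADH3D-1D, described as ADH3D, chromosome 1D, 452625185 to 452627671, minus strand) and TraesCS5D02G196300 (ADH2H-5D, described as ADH2H, chromosome 5D, 299832208 to 299835185, plus strand). Reads of near-identical copies can be assigned to the wrong one, so the split between homoeologues is less certain than their sum.

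The annotation of the table gives all 7 loci the GO terms response to hypoxia and response to flooding, which 0.106% and 0.0159% of all loci carry. All 7 also carry the enzyme number of alcohol dehydrogenase, which 0.0414% of loci have. The study singled out ADH2H-5D and ADH2A-4B from these same libraries, so their values here are no independent evidence. It measured ADH2H-5D by quantitative PCR as well, and its designed primers are shown because that locus behaved differently from the other 6 below.
ADH2H-5D forward primer: aagtctgcctccttagct
ADH2H-5D reverse primer: gttcaagtccacaccgata

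The smallest library held 68.75 M (mega) counts, the largest 107.71 M and the median one 97.69 M. The library labelled W72_BN207 replicate 1 went against its label. Of 16 loci that the other BN207 libraries express and the other varieties do not, 0 were detected in it, and of 19 loci particular to BN607 all 19 were detected. Each of the other 17 libraries fitted the variety in its label. For the ZM22 libraries this rests on 1 locus particular to ZM22, and on 0 detected of the loci particular to BN207 or BN607. The treatment in the labels was not checked in this way. Results that rest on W72_BN207 replicate 1 are given with and without it. Replicates varied widely, with a common biological coefficient of variation of 0.676 over all loci. The median coefficient of single loci was 0.475. Those of the ADH1 loci, at 0.591 to 0.746, lay above this median and were exceeded by 26.1% to 37.1% of the 50656 tested loci. That of ADH2H-5D (0.989) was exceeded by 14.1% of loci. Those of ADH3D-1D (1.49), ADH2A-4A (1.46) and ADH2A-4B (1.55) were exceeded by no more than 4.01%.

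ADH1 transcripts were among the most abundant in the seeds, and ZM22 had the highest levels. FPKM, the fragments per kilobase of transcript scaled to the size of the library, averaged 304 for ADH1-4A, 293 for ADH1-4D and 132 for ADH1-4B over the 18 libraries, which put them at ranks 205, 217 and 536 of all loci. In ZM22 the level of ADH1-4A was 596, 832 and 189 FPKM in the controls and 1115, 340.3 and 345 FPKM under waterlogging. The BN207 controls had 273, 135 and 111 FPKM and the libraries labelled BN207 waterlogged had 203, 101 and 148 FPKM. BN607 had 204, 115 and 311 FPKM in the controls and 136, 152 and 157 FPKM under waterlogging. Within each variety the treated and control libraries overlapped, whereas 5 of the 6 ZM22 libraries lay above all 12 libraries of the other varieties.

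ADH1-4D had the widest range of the 3 in absolute terms. Its level in ZM22 was 772, 873 and 132 FPKM in the controls and 1257, 261 and 277 FPKM under waterlogging. In BN207 it was 285, 117 and 81.1 FPKM in the controls and 107, 85.4 and 161 FPKM under waterlogging. In BN607 it was 145, 109.8 and 246 FPKM in the controls and 173, 94.3 and 101 FPKM under waterlogging. The lowest ZM22 library, a control, exceeded 7 of the 12 libraries of BN207 and BN607, and 3 ZM22 libraries lay above all 12.

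ADH1-4B was the lowest of the ADH1 loci in every library. In ZM22 it stood at 339, 431 and 62.0 FPKM in the controls and 649, 71.0 and 104 FPKM under waterlogging. BN207 controls had 139, 58.3 and 40.0 FPKM and the waterlogged libraries 48.3, 57.3 and 45.3 FPKM. BN607 controls had 45.0, 47.3 and 84.96 FPKM and the waterlogged libraries 73.0, 36.1 and 47.6 FPKM. The 3 ZM22 libraries that were highest for one ADH1 locus, control replicates 1 and 2 and waterlogged replicate 1, were highest for all 3 loci.

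**Figure D1:**
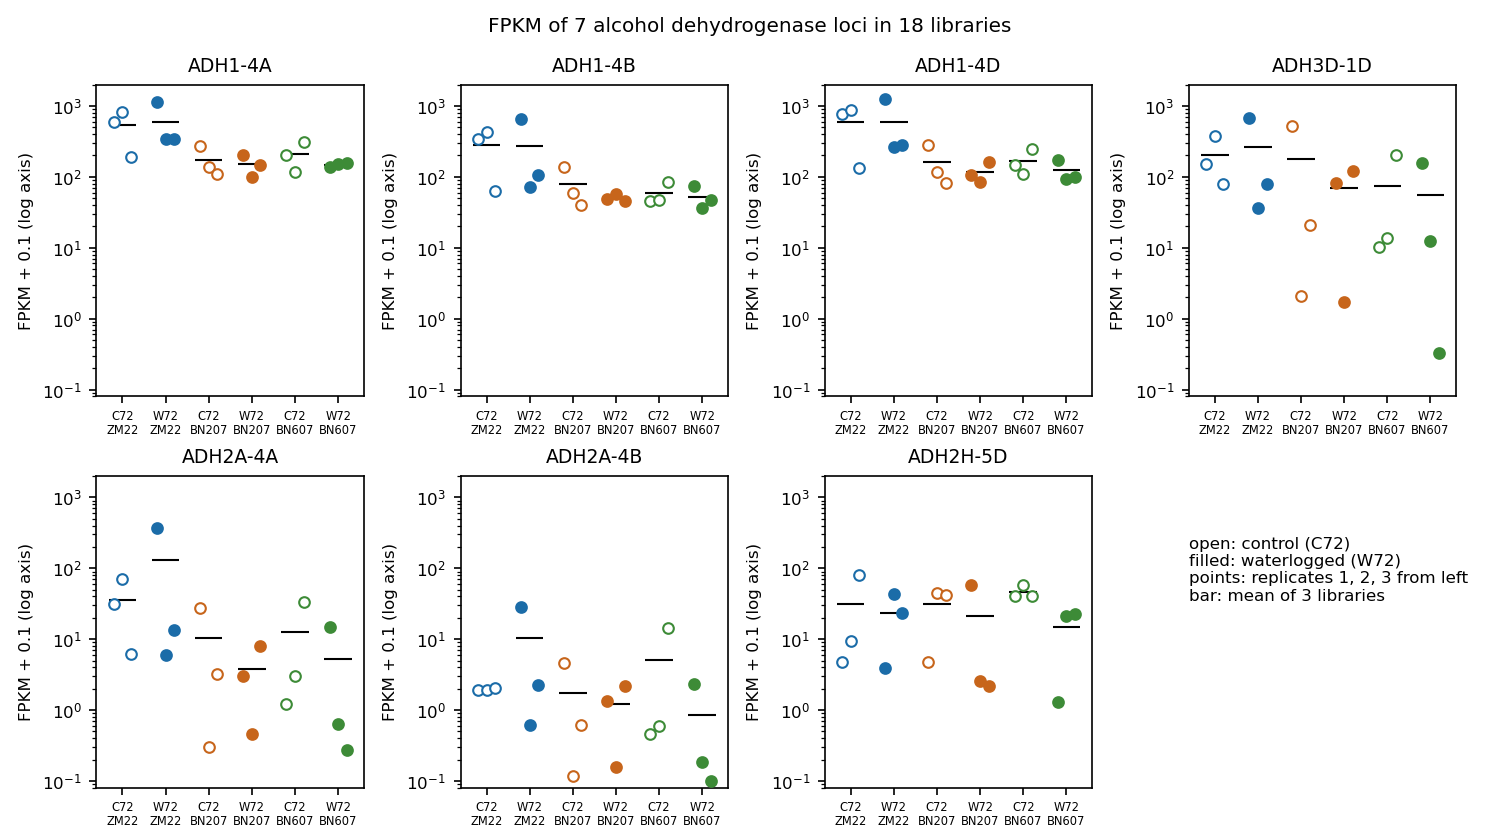
FPKM of the 7 ADH loci, plotted with 0.1 added on a log axis, in the 6 groups of 3 libraries. Open points are control libraries, filled points waterlogged libraries and bars group means. Waterlogged and control libraries of ZM22 overlap for every locus, and the ADH1 loci range from 36.1 to 1257 FPKM while ADH2A-4B ranges from 0 to 28.3 FPKM.

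ADH3D-1D, which averaged 141 FPKM, spanned a 2985-fold range between libraries. ZM22 had 149.8, 380.4 and 78.9 FPKM in the controls and 680.4, 35.6 and 78.9 FPKM under waterlogging. BN207 had 518, 1.99 and 21.1 FPKM in the controls and 81.7, 1.61 and 121 FPKM under waterlogging. BN607 had 10.1, 13.7 and 200.2 FPKM in the controls and 154, 12.5 and 0.23 FPKM under waterlogging. In BN207 and BN607 the levels within a group were far apart, whereas the lowest of the 6 ZM22 libraries was at 35.6 FPKM.

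ADH2A-4A had a mean of 32.8 FPKM, which rests largely on 1 library. It was 31.1, 69.4 and 6.05 FPKM in the ZM22 controls and 369.8, 5.81 and 13.2 FPKM in the waterlogged ZM22 libraries. In BN207 it was 27.7, 0.20 and 3.17 FPKM in the controls and 2.93, 0.35 and 7.99 FPKM under waterlogging. BN607 had 1.14, 2.97 and 33.9 FPKM in the controls and 14.7, 0.54 and 0.18 FPKM under waterlogging. Waterlogged ZM22 replicate 1, the highest library of all 3 ADH1 loci, was also the highest of ADH2A-4A, followed by a ZM22 control at 69.4 FPKM. ADH2A-4B was low in most libraries, with a mean of 3.46 FPKM, a maximum of 28.3 FPKM in that same ZM22 library and a value of 0 FPKM, from 0 counts, in waterlogged BN607 replicate 3.

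ADH2H-5D had its own order of libraries. In ZM22 it was 4.61, 9.46 and 79.2 FPKM in the controls and 3.85, 43.2 and 23.2 FPKM under waterlogging. The BN207 controls had 4.73, 45.3 and 42.5 FPKM, and the libraries labelled BN207 waterlogged had 58.3, 2.50 and 2.09 FPKM, of which the first is the one that goes against its label. BN607 had 40.2, 58.3 and 40.3 FPKM in the controls and 1.19, 21.1 and 22.4 FPKM under waterlogging. The ZM22 libraries that were highest for ADH1 were the lowest of that variety for ADH2H-5D.

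Together the 7 loci summed to between 248.0 and 4103 FPKM, that is 0.0405% to 0.695% of the FPKM of a library. The ADH1 loci made up 55.7% to 98.2% of that sum. Group means were 1680 ± 1041 FPKM (SD, n = 3) in ZM22 controls and 1901 ± 1907 in waterlogged ZM22, 637 ± 534 and 413 ± 143 in BN207, and 574 ± 312 and 399.9 ± 134 in BN607. Over the varieties the waterlogged minus control difference of the log2 sum was −0.28, which was smaller than the spread between libraries (exact permutation test within varieties, 8000 arrangements, two-sided p = 0.519). The varieties rank ZM22, BN207, BN607 by their control means, and BN207 and BN607 are within 1 SD of each other. In bulk samples fewer cells of a type and less RNA per cell cannot be told apart.

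The main question was whether the level of these genes differed between waterlogged and control seeds after 72 h of germination. No library was taken during submergence, so the tests do not show the response at that time. No ADH locus passed the test in any variety, where the test was edgeR's quasi-likelihood test on counts with Benjamini-Hochberg adjusted p under 0.05 over the 50656 tested loci. The count was 0 of 7 in ZM22, where 0.00592% of all loci were called, 0 of 7 in BN207 (0% of all loci) and 0 of 7 in BN607 (0% of all loci). At an unadjusted p under 0.05 the count was also 0 of 7 in each variety, beside 1.09%, 1.89% and 2.12% of all loci in ZM22, BN207 and BN607. DESeq2 called 0 of 7 in each variety as well, beside 0.284%, 0.541% and 0.0671% of all loci. The tests had few calls among all loci, so a count of 0 of 7 is near the background.

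In ZM22 the median log2 fold change of the 7 loci was 0.04, beside −0.02 for all loci, and 4 of 7 lay above 0. The highest values were those of ADH2A-4B (2.52 ± 2.17, SE) and ADH2A-4A (1.83 ± 2.09), both with an adjusted p of 1 by edgeR. Both rest on waterlogged replicate 1, without which they were −0.61 and −2.17. The 3 ADH1 loci lay between −0.09 and 0.04 with SEs of 0.70 to 0.92.

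In BN207 the log2 fold changes of all 7 loci were below 0 with a median of −0.61, beside −0.05 for all loci, and none passed the test. ADH3D-1D (−1.50 ± 2.13, SE) and ADH2A-4A (−1.50 ± 2.07) were the lowest. ADH2H-5D stood at −0.49 ± 1.27 with all libraries. Without the library labelled W72_BN207 replicate 1 it stood at −3.50 ± 1.35, with an unadjusted p of 0.0220 and an adjusted p of 0.988 (edgeR). None of the other 6 loci passed the unadjusted threshold without that library.

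In BN607, the variety that the study ranks as tolerant, 2 of 7 loci had a log2 fold change above 0 and the median was −0.28, beside 0.10 for all loci. ADH2H-5D, at −1.59 ± 1.30 (SE, adjusted p = 1, edgeR), was the 1 locus of 7 whose 3 waterlogged libraries all lay below the 3 controls, between 1.19 and 22.4 FPKM against 40.2 to 58.3 FPKM. Groups that do not overlap were found for 9.44% of all loci in BN607, and for 0 of 7 ADH loci beside 3.40% in ZM22 and 3.62% in BN207. An exact test of 3 libraries against 3 cannot go below p = 0.10. ADH2A-4B had a log2 fold change of −2.08 ± 2.14 in BN607, which became 1.45 without control replicate 3.

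Averaged over the varieties, 0 of 7 loci passed the test beside 0.00197% of all loci, and 0 of 7 at an unadjusted p under 0.05 beside 2.72%. DESeq2 called 0 of 7 beside 0.430% of all loci. The median over the 7 loci was −0.20, beside 0.01 for all loci. Without the library labelled W72_BN207 replicate 1, 0 of 7 loci passed the edgeR test for this average, beside 0.00395% of all loci. At an unadjusted p under 0.05 the count was then 1 of 7 beside 5.35%. The response did not pass the test of a difference between varieties for any of the 7 loci. For BN207 minus ZM22 the count was 0 of 7 beside 0.00395% of all loci, for BN607 minus ZM22 0 of 7 beside 0.00395%, and for BN607 minus BN207 0 of 7 beside 0%. At an unadjusted p under 0.05 the counts were again 0 of 7, beside 1.49%, 1.37% and 1.36% of all loci, and DESeq2 called 0 of 7 beside 0.458%, 0.215% and 0.322%.

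**Figure D2:**
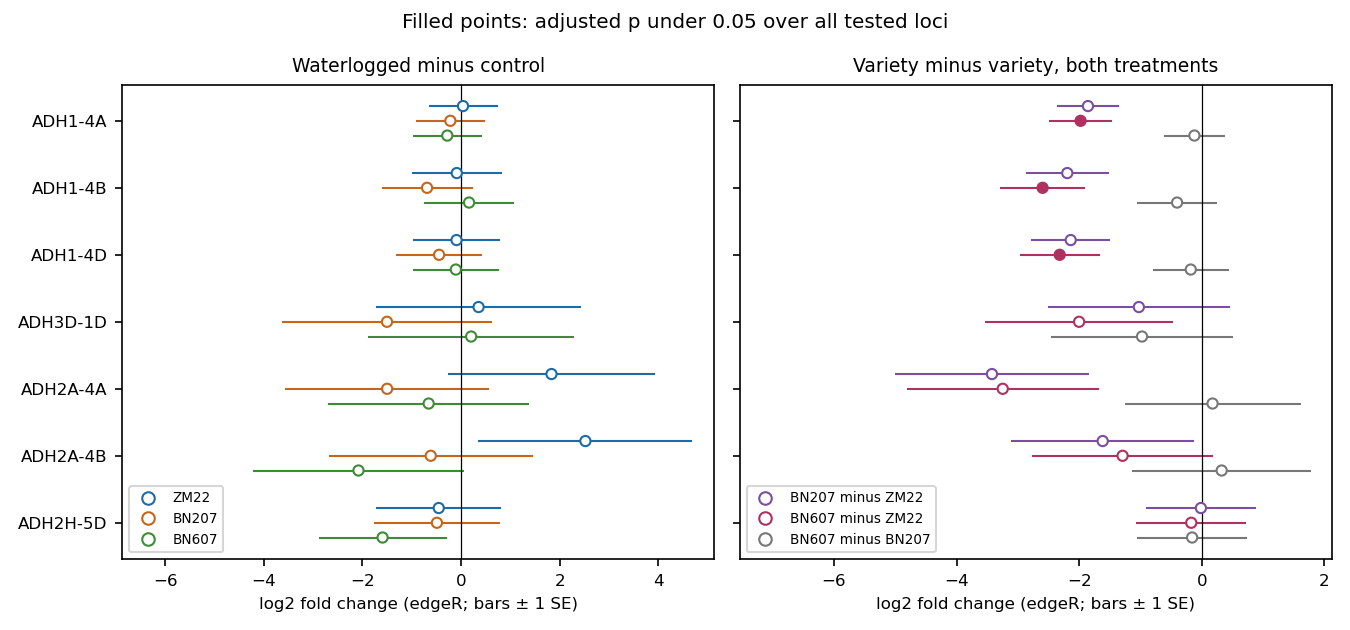
Log2 fold changes (points) with 1 SE (bars) of the 7 ADH loci, from edgeR. The left panel gives waterlogged minus control in each variety and the right panel the difference between varieties averaged over treatments, where filled points mark an adjusted p under 0.05. Filled points occur only for the 3 ADH1 loci in BN607 minus ZM22, at −1.98, −2.60 and −2.32.

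Calls among the ADH loci came from the comparison of varieties. All 3 ADH1 loci were lower in BN607 than in ZM22, averaged over both treatments. ADH1-4A had a log2 fold change of −1.98 ± 0.51 (SE), 3.94-fold lower, with an adjusted p of 0.0250 by edgeR. ADH1-4B had a log2 fold change of −2.60 ± 0.69 (6.05-fold lower, adjusted p = 0.0277 by edgeR) and ADH1-4D one of −2.32 ± 0.65 (4.99-fold lower, adjusted p = 0.0354 by edgeR). Mean levels over 6 libraries were 570 ± 351 FPKM (SD) in ZM22 against 179 ± 70.8 in BN607 for ADH1-4A, 276 ± 239 against 55.6 ± 18.9 for ADH1-4B, and 595 ± 441 against 145 ± 57.8 for ADH1-4D.

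Thus 3 of 7 loci were called in BN607 minus ZM22, all lower, beside 10.6% of all loci in either direction and 6.80% lower. At an unadjusted p under 0.05 the count was 3 of 7 beside 27.7%, and DESeq2 called 4 of 7 beside 20.0%. The calls depend on single libraries. All 3 were lost without any 1 of ZM22 control replicate 1, ZM22 control replicate 2, waterlogged ZM22 replicate 1, BN607 control replicates 1 or 2, or waterlogged BN607 replicates 2 or 3, and the count was 2 without BN607 control replicate 3. Without the library labelled W72_BN207 replicate 1 the count was 3. ADH2A-4A had the lowest log2 fold change of the 7 loci, −3.25 ± 1.56, but an adjusted p of 0.193 (edgeR).

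For BN207 minus ZM22 the same loci lay in the same direction without passing the test. The log2 fold change was −1.86 ± 0.51 (SE) for ADH1-4A, −2.19 ± 0.68 for ADH1-4B and −2.14 ± 0.65 for ADH1-4D. Their adjusted p values by edgeR were 0.0539, 0.0882 and 0.0808. The count was 0 of 7 beside 4.63% of all loci, and 4 of 7 at an unadjusted p under 0.05 beside 16.8%. DESeq2 called 4 of 7 beside 10.4% of all loci, the 3 ADH1 loci and ADH2A-4A, whose log2 fold change in edgeR was −3.42 ± 1.57. Without ZM22 control replicate 3 or without BN207 control replicate 1 the edgeR count was 3 of 7, without waterlogged ZM22 replicate 2 it was 1, and it was 0 without the library labelled W72_BN207 replicate 1.

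ADH2H-5D had a log2 fold change of −0.01 ± 0.90 (SE) in BN207 minus ZM22, with an adjusted p of 0.998 by edgeR. Without the library labelled W72_BN207 replicate 1 it was −1.52 ± 0.81, with an adjusted p of 0.370 by edgeR. Mean levels of this locus were 27.3 ± 29.5 FPKM (SD, n = 6) in ZM22, 25.9 ± 25.5 in BN207 and 30.6 ± 19.9 in BN607, closer to each other than their spread. Between BN607 and BN207 the count was 0 of 7 beside 1.52% of all loci, 0 of 7 at an unadjusted p under 0.05 beside 9.53%, and 0 of 7 in DESeq2 beside 4.67%. Without the library labelled W72_BN207 replicate 1 both edgeR counts were still 0 of 7, beside 4.11% and 13.9% of all loci. By mean level ADH1 was thus highest in ZM22. This difference was called by edgeR against BN607, where the calls depended on single libraries, and not against BN207. BN207 and BN607 did not differ beyond their spread.

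The shares of the homoeologues in the ADH1 transcripts differed less between libraries than their levels. By FPKM, ADH1-4A made up 34.9% to 56.6% of the 3 loci (median 45.6%), ADH1-4D 29.9% to 45.5% (median 38.2%) and ADH1-4B 10.6% to 23.5% (median 16.7%). By counts, which do not correct for the length of the models, the medians were 30.03% for ADH1-4A, 41.6% for ADH1-4D and 29.7% for ADH1-4B. The order of the 3 copies therefore depends on the length assigned to each locus, and the low FPKM share of the 4B copy goes with its long merged model.

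ZM22, BN207 and BN607 did not differ in these shares beyond the spread of their libraries. The mean share of ADH1-4A was 43.0% ± 6.90 (SD, n = 6) in ZM22, 45.1% ± 6.37 in BN207 and 47.2% ± 7.01 in BN607. The library labelled W72_BN207 replicate 1 had the highest share of all, 56.6%, and without it the difference of BN207 minus ZM22 went from 2.02 to −0.30 percentage points. Over 12 comparisons, which are those of ADH1-4A, ADH1-4B, ADH1-4D and of ADH2A-4A within its pair with ADH2A-4B between the 3 pairs of varieties, the lowest p was 0.173 (exact permutation test, two-sided) and no adjusted p was below 0.720. Between treatments ADH1-4A gained 2.13 percentage points and ADH1-4B lost 1.17 under waterlogging, with exact p values of 0.519 to 0.692 over the 4 shares, and an adjusted p of 0.692 for each. ADH2A-4A made up 70.2% to 100% of its pair, so the 4A copy exceeded the 4B copy in all 18 libraries. Some of these shares rest on few counts, and the 100% was 26 counts against 0 in waterlogged BN607 replicate 3. TraesCS4D02G103100, also described as ADH2A, was not among the chosen loci and does not enter this share.

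**Figure D3:**
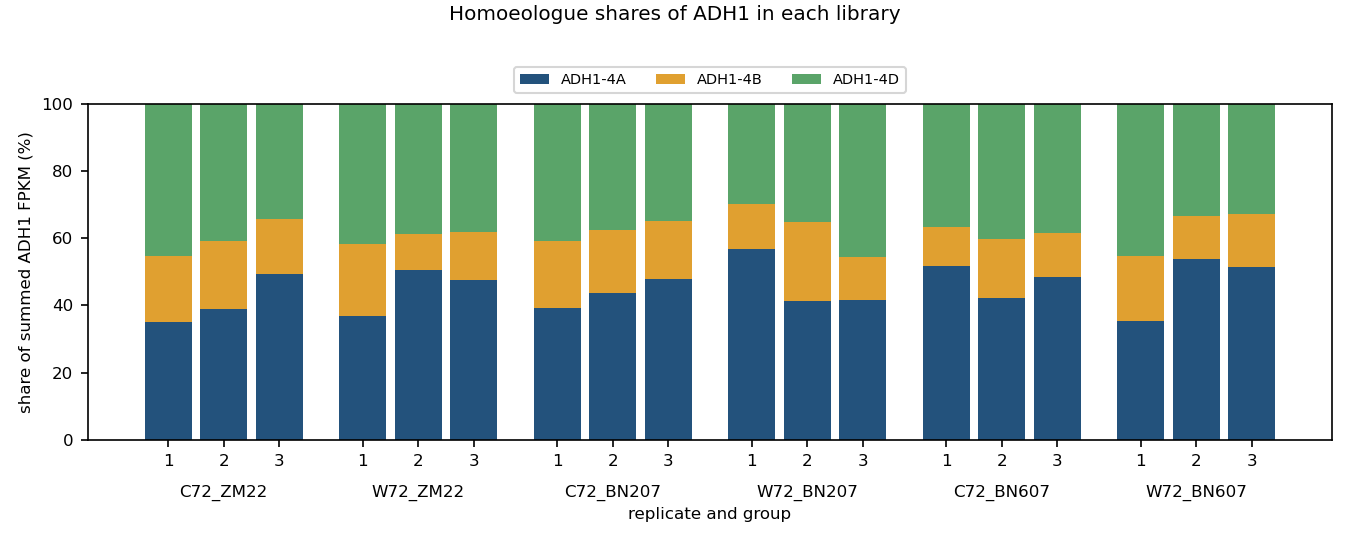
Share of ADH1-4A, ADH1-4B and ADH1-4D in the summed FPKM of the ADH1 loci (%, stacked bars) in each of the 18 libraries, by group. ADH1-4A takes 34.9% to 56.6% and ADH1-4B 10.6% to 23.5%, with no difference between varieties or treatments beyond the spread of the libraries.

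Markers of dividing cells tended to be low in libraries with high ADH1 levels. A list of histones, mitotic cyclins and replication factors had 277 tested loci of 313, with a summed level of 1050 to 9104 FPKM in ZM22, 1236 to 16131 in BN207 and 2146 to 24250 in BN607. In BN607 minus ZM22, 20 of the 277 loci were called higher and 4 lower, beside 10.6% of all loci called, and at an unadjusted p under 0.05 160 were higher and 8 lower, beside 27.7%. Of the 313 listed loci 1 was at 0 FPKM in every library. Its median log2(FPKM + 1) was lowest, at 1.14 and 1.25, in ZM22 control replicates 1 and 2. It was 1.61 in waterlogged ZM22 replicate 1, so the ZM22 libraries highest for ADH1 had the lowest levels of this list. The part of this in the difference between varieties was not tested.

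Over the 18 libraries ADH1-4B had the lowest Pearson correlation with the list, r = −0.76 (permutation p = 7e-05, adjusted p = 0.00077 over 11 relations) and Spearman rho = −0.71 (adjusted p = 0.00693). Without the 2 libraries farthest from the median of the list r was −0.64. ADH1-4D had r = −0.73 (adjusted permutation p = 0.00269), rho = −0.73 and r = −0.60 without those libraries, and ADH1-4A had r = −0.61 (adjusted permutation p = 0.0115), rho = −0.55 and r = −0.44. The relation of ADH1-4A was −0.78 within ZM22 and −0.60 within BN207 but 0.16 within BN607, so it did not hold in each variety. For ADH1-4B the values within ZM22, BN207 and BN607 were −0.88, −0.73 and −0.42, and for ADH1-4D they were −0.83, −0.82 and −0.34. All permutation p-values of relations with the list come from shuffling the 18 libraries without regard to group. They therefore include differences between varieties and treatments. Within groups, after group means were subtracted, r was −0.74 for ADH1-4B, −0.76 for ADH1-4D and −0.56 for ADH1-4A, with no p-value computed.

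ADH2H-5D alone of the 7 loci went the other way, with r = 0.71 (adjusted permutation p = 0.00415), rho = 0.60 (adjusted p = 0.0206) and r = 0.70 without the 2 farthest libraries. The relation held within each variety at 0.89, 0.79 and 0.71, within groups at 0.83, and at 0.72 without the library labelled W72_BN207 replicate 1. Of all tested loci 29.8% lay as far from 0 or farther in the same direction, so this is a common pattern in the data. The corresponding share was 3.50% for ADH1-4B, 4.71% for ADH1-4D, 8.00% for ADH2A-4A, 10.4% for ADH1-4A, 10.5% for ADH3D-1D and 17.0% for ADH2A-4B. For ADH2A-4A r was −0.66 (adjusted permutation p = 0.00623) and for ADH3D-1D it was −0.60 (adjusted permutation p = 0.0115), whereas ADH2A-4B had r = −0.43 with an adjusted permutation p of 0.0789.

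The composition of ADH1 moved with the list as well. The share of ADH1-4A rose with it across libraries at r = 0.71 (adjusted permutation p = 0.00415), rho = 0.69, and r = 0.63 without the 2 farthest libraries, and the relation was 0.92, 0.55 and 0.64 within ZM22, BN207 and BN607. The share of ADH1-4D had r = −0.61 (adjusted permutation p = 0.0115) and that of ADH1-4B r = −0.53 (adjusted permutation p = 0.0317). Libraries with low levels of the list thus had more ADH1 transcript and a smaller part of it from the 4A copy.

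**Figure D4:**
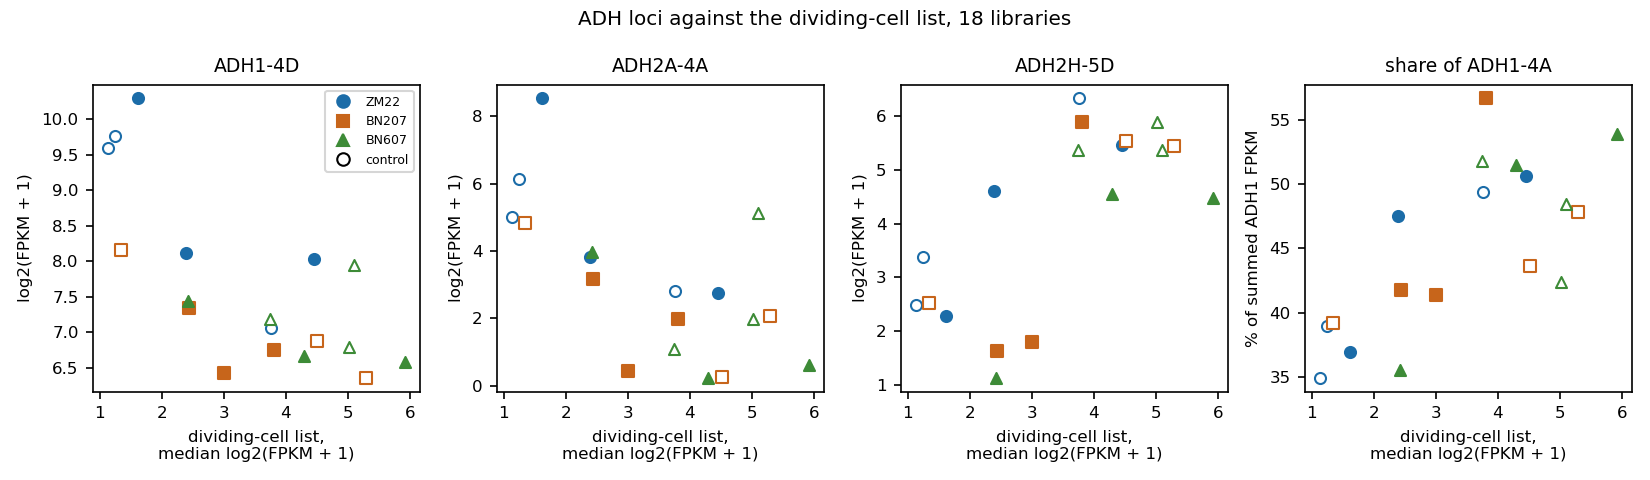
Levels of ADH1-4D, ADH2A-4A and ADH2H-5D in log2(FPKM + 1), and the share of ADH1-4A in ADH1 (%), against the median log2(FPKM + 1) of 277 dividing-cell loci in 18 libraries. ADH1-4D and ADH2A-4A lie lower where the list is higher (r = −0.73 and −0.66), while ADH2H-5D and the ADH1-4A share lie higher (both r = 0.71).

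Markers of other parts of the seed were also read. Of 107 storage protein loci of the starchy endosperm 23 were tested, with sums of 42.3 to 815 FPKM in ZM22, 8.76 to 294 in BN207 and 2.84 to 85.03 in BN607. Of the 107 listed loci 7 were at 0 FPKM in every library. Secreted hydrolases of the aleurone, with 44 of 53 loci tested, summed to 10921 to 34250 FPKM in ZM22, 15997 to 52075 in BN207 and 4524 to 37284 in BN607. Late embryogenesis loci, with 45 of 57 tested, ran from 386 to 5698 FPKM in sum and photosynthetic loci, with 27 of 176 tested, from 2.43 to 134 FPKM. Of 6 root loci (casparian strip proteins) 0 passed the filter. None of the loci of these lists was called under waterlogging in any variety. The starchy endosperm list nevertheless had a median log2 fold change of −7.14 in ZM22 and −3.67 in BN207, against −0.62 in BN607. In these varieties 15, 10 and 1 of its 23 loci were lower at an unadjusted p under 0.05 and 0 higher, beside 1.09%, 1.89% and 2.12% of all loci in either direction. Its sums were 108 to 815 FPKM in ZM22 controls and 42.3 to 426 FPKM in waterlogged ZM22, 36.8 to 294 and 8.76 to 91.1 FPKM in BN207, and 27.0 to 85.03 and 2.84 to 34.5 FPKM in BN607. The fall leans on single control libraries. The list's median log2(FPKM + 1) was 4.03, 0.21 and 0.16 in ZM22 control replicates 1 to 3 and 0.04, 0 and 0.02 under waterlogging. In BN207 this median was 2.37, 0.45 and 1.22 in control replicates 1 to 3 and 0.35, 0.31 and 0.11 under waterlogging. In the late embryogenesis list the median log2 fold change was 3.14 in BN207, with 4 of 45 loci higher and 0 lower at an unadjusted p under 0.05. This rise leans on 1 library, waterlogged BN207 replicate 2, whose sum was 5698 FPKM. In the libraries labelled W72_BN207 replicates 1 and 3 the list's median log2(FPKM + 1) was 0.61 and 0.58. Both lay below the BN207 controls, at 0.88 to 2.04. The part of these lists in the ADH results was not tested.

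The loci whose levels followed each ADH locus most closely differed between members. ADH1-4A, ADH1-4B and ADH1-4D had correlations of 0.92 to 0.96 with each other over the 18 libraries, as a description of log2(FPKM + 1). In the order of 50655 other loci ADH1-4D was at rank 3 for ADH1-4A and at rank 6 for ADH1-4B. ADH1-4B was at rank 205 for ADH1-4A, and ADH1-4A at rank 299 for ADH1-4B. For ADH1-4D, ADH1-4B was at rank 13 and ADH1-4A at rank 32. The 3 loci outside the 7 that were nearest to ADH1-4A were TraesCS1D02G185500, TraesCS2B02G439700 and the CONSTANS-like TraesCS5B02G163500 (each r = 0.96). Those of ADH1-4B were TraesCS7A02G505300, described as anthocyanidin reductase, TraesCS2D02G039300, described as a xylanase inhibitor, and TraesCS6D02G021100, described as a cytokinin glucosyltransferase (each r = 0.97). Those of ADH1-4D were TraesCS5B02G404000 (r = 0.98), TraesCS5B02G299000 and TraesCS3A02G530700 (both r = 0.97).

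ADH2A-4A was the locus nearest to ADH2A-4B (rank 1, r = 0.89) and at rank 39 for ADH3D-1D (r = 0.90). In the other direction, ADH2A-4B was at rank 114 and ADH3D-1D at rank 52 for ADH2A-4A. The locus nearest to ADH3D-1D was TraesCS6D02G365700, described as dihydroflavonol 4-reductase (r = 0.97), followed by TraesCS3A02G116400 and by TraesCS1D02G346200, described as 6-phosphofructokinase 3 and so part of glycolysis (both r = 0.95). ADH2A-4A was nearest to TraesCS2B02G562300 and to TraesCS2B02G130500, described as a universal stress protein (both r = 0.96), and then to TraesCS7D02G536500 (r = 0.95). After ADH2A-4A, the loci nearest to ADH2A-4B were TraesCS4D02G318700, described as an MLO homolog (r = 0.88), TraesCS6D02G178000 and TraesCS6D02G366200, described as dihydroflavonol reductase (both r = 0.85). ADH2H-5D stood apart, with correlations of −0.20 to −0.43 with the other 6. Its nearest locus was TraesCS5A02G193900 (r = 0.99), which the table describes as alcohol dehydrogenase 2 and which lies on the matching chromosome 5A, followed by TraesCS5B02G166300 (indole-3-glycerol phosphate synthase, r = 0.99) and TraesCS7A02G301700 (nitrate transporter, r = 0.98).

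Beyond the 7, the group 4 chromosomes carry further ADH loci within 500000 bp of ADH1, each at a lower mean level than ADH1. TraesCS4A02G202300 (ADH2D) averaged 5.01 FPKM, TraesCS4B02G106500 (ADH2B) 0.707 FPKM, TraesCS4D02G103100 (ADH2A) 3.85 FPKM and TraesCS4D02G103300 (ADH3) 10.4 FPKM. In all, 24 of 31 other alcohol dehydrogenase loci were tested and 0 were called under waterlogging in any variety. In BN607 minus ZM22 and in BN207 minus ZM22, 2 were called lower and 0 higher in each, beside 10.6% and 4.63% of all loci called.

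Pyruvate decarboxylase makes the acetaldehyde that alcohol dehydrogenase reduces, and 6 of its 16 loci, found by enzyme number, were tested. None was called under waterlogging in any variety. In BN607 minus ZM22 1 of the 6 was lower and 0 higher, beside 10.6% of all loci called in either direction and 6.80% lower. The lower one was TraesCS4D02G194200, the most abundant with a mean of 101 FPKM, whose log2 fold change was −2.34 ± 0.65 (SE, adjusted p = 0.0330 by edgeR). In BN207 minus ZM22 it stood at −2.29 ± 0.65 (adjusted p = 0.0606 by edgeR). Its level was 288, 218 and 69.1 FPKM in ZM22 controls and 455, 75.8 and 129 FPKM in waterlogged ZM22, highest in the same 3 libraries as ADH1.

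Lactate dehydrogenase, which forms lactate from pyruvate in the other branch of fermentation, had 3 of 4 loci tested. In BN607 minus ZM22 2 of the 3 were lower and 0 higher, beside 10.6% of all loci called in either direction and 6.80% lower. TraesCS7B02G317900 had a log2 fold change of −6.88 ± 1.79 (SE, adjusted p = 0.0252 by edgeR). This locus was at 168, 65.8 and 0.21 FPKM in ZM22 controls and 106, 34.0 and 38.4 FPKM in waterlogged ZM22, while the BN607 libraries had 0.34, 0.027 and 8.23 FPKM in the controls and 0.29, 0.097 and 0.093 FPKM under waterlogging. Sucrose synthase, which feeds sucrose into glycolysis at a lower cost in ATP, had 10 of 16 loci tested. In both comparisons with ZM22 1 was higher and 1 lower, beside 10.6% of all loci called for BN607 and 4.63% for BN207. The lower one, TraesCS7D02G159800, stood at −2.97 ± 0.79 (SE, adjusted p = 0.0284 by edgeR) in BN607 and −3.32 ± 0.80 (adjusted p = 0.0286 by edgeR) in BN207.

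The other steps had no calls. All 6 alanine aminotransferase loci, which make alanine from pyruvate, were tested, as were 11 of 14 mitochondrial aldehyde dehydrogenase loci of family 2, which oxidise acetaldehyde. Of the 3 non-symbiotic haemoglobins 2 were tested, and of the 6 plant cysteine oxidases, enzymes that sense oxygen, 5 were tested. In none of these 4 lists was a locus called in either comparison with ZM22, or under waterlogging in any variety. Of all loci 10.6% were called in BN607 minus ZM22 and 4.63% in BN207 minus ZM22.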

How the data were processed

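RNA of 18 libraries (3 varieties, 2 treatments, 3 replicates each) was sequenced. Trimming was done by the authors with cutadapt, alignment with HISAT (genome IWGSC RefSeq v1.0) and assembly with StringTie, whose versions the sources do not name. FPKM per locus and library were deposited by the authors, as were expected counts, which are unscaled whole-number estimates of unstated origin. All 7 members passed the filter of at least 1 FPKM in at least 3 libraries, as did 50656 of 94141 loci.

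Counts were scaled by TMM and fitted with edgeR 4.0.16 in R 4.3.3 over all 18 libraries with 1 mean per group. Contrasts were waterlogged minus control, their average and differences, and varieties averaged over treatments, with Benjamini-Hochberg adjustment over all tested loci. DESeq2 1.42.0 and limma 3.58.1 on log2(FPKM + 1) and log2(FPKM + 0.1) were alternatives. Shares and sums were tested by exact permutation, relations with the dividing-cell list by 100000 permutations of all 18 libraries without regard to group. The members and lists were chosen with earlier results of these data known, and the pyruvate decarboxylases were taken by enzyme number after the table was seen. All members were named, with the 3 nearest loci of each by Pearson r and the most abundant locus of a list. No protein or promoter sequence was used here.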

Additional observations from a re-analysis of the deposited data

How the results depend on the processing

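Replicate spread set the precision. Of 249 counts of called members under alternatives 232 equalled the main count or were near it. For BN607 minus ZM22, with a main count of 3, 4 in DESeq2 and 2 without BN607 control replicate 3 were taken as near. Most of the 232 were 0 in both fits. For BN207 minus ZM22, where the count was 0, it was 4 in DESeq2, 1 in limma on log2(FPKM + 1), 1 on log2(FPKM + 0.1), 1 with a replicate block and 0 to 3 without single libraries. For BN607 minus ZM22, where it was 3, it was 1 in limma with either pseudocount, 1 with only the libraries compared and 0 to 3 without single libraries. The cause was not tested. The replicate numbers do not pair the libraries, since 3 of 9 pairs had a correlation over 0.1.

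In waterlogged minus control ZM22, ADH3D-1D went from 0.36 to −0.40 and −0.41 in limma with 1 and 0.1 added and to −0.28 with the replicate block, and ADH2H-5D went from −0.45 to 0.047 and 0.053. ADH1-4B in BN607 went from 0.16 to −0.17 and −0.18 in limma. Without single libraries the log2 fold changes in ZM22 ran from −2.07 to 1.26 for ADH3D-1D, −1.03 to 1.34 for ADH2H-5D, −2.17 to 2.80 for ADH2A-4A and −0.61 to 3.09 for ADH2A-4B. In BN207 they ran from −1.06 to 0.23 for ADH1-4B, −2.42 to 2.89 for ADH3D-1D, −2.92 to 1.51 for ADH2A-4A and −3.50 to 0.035 for ADH2H-5D, and in BN607 from −0.49 to 0.50 for ADH1-4B and −6.77 to 1.45 for ADH2A-4B. ADH1-4B in BN607 minus BN207 ran from −0.73 to 0.059. ADH2H-5D in BN207 minus ZM22 went from −0.01 to 0.53 with the replicate block and ran from −1.52 to 0.88 without single libraries.

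As a share of all 7 loci, ADH1-4A differed by −0.48 and ADH1-4B by −0.10 percentage points in BN207 minus ZM22, and ADH1-4D by 0.78 between treatments. Within their own homoeologues these differences were 2.02, 0.51 and −0.96, and without single libraries they ran from −0.30 to 3.53 for ADH1-4A, −0.80 to 1.48 for ADH1-4B and −2.41 to 0.19 for ADH1-4D, and those of ADH2A-4A from −0.56 to 3.10 between treatments. In BN607 minus BN207 they ran from −0.98 to 2.16 for ADH1-4D and −1.99 to 3.91 for ADH2A-4A. No alternative brought an adjusted p of a share below 0.208 or the p of the sum below 0.183 (exact permutation tests).

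Over all loci the count under waterlogging was 3 in ZM22, 0 in BN207 and 0 in BN607 in edgeR and 144, 274 and 34 in DESeq2, and averaged 1 against 218. For BN207 minus ZM22, BN607 minus ZM22 and BN607 minus BN207 it was 2346, 5394 and 769 in edgeR and 5261, 10123 and 2364 in DESeq2. With only the libraries compared it was 1364 for BN207 minus ZM22 and 5 for BN607 minus BN207, and in limma with 1 added it was 1365 for the latter.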
